A study of Homo sapiens with 3 samples.

Results

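MHC class I antigen presentation was followed through 9 genes that were chosen by name: the heavy chain genes HLA-B, HLA-C, HLA-E and HLA-F, the light chain gene B2M, the transporter genes TAP1 and TAP2, the loading bridge gene TAPBP and the transactivator gene NLRC5. They are 9 of the 22499 rows with a gene symbol in the count tables, and all 9 had enough counts to be compared in each of the 4 comparisons. The cells were CAMA-1, an established estrogen receptor-positive breast cancer cell line, grown as spheroids from 2000 plated cells and treated with 1 uM ribociclib, a CDK4/6 inhibitor, for 11 days. Single-cell RNA sequencing with a 3' chemistry was run on 3 spheroid compositions, with 1 library each: sensitive cells alone, a mixture of 50% sensitive and 50% resistant cells, and resistant cells alone. The sensitive lineage carried a Venus label and the resistant lineage an mCherry label, both lentiviral, and the resistant lineage had been selected by long growth in ribociclib. All 3 libraries were labelled as treated, so no untreated library was compared, and each lineage was 1 selected or parental culture.

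MHC class I molecules display peptides from inside the cell to cytotoxic T cells. A heavy chain pairs with beta-2 microglobulin in the endoplasmic reticulum, the transporter TAP1-TAP2 brings in peptides cut by the proteasome, and tapasin holds the empty complex at the transporter until a peptide fits. The genes of this pathway are induced by interferons, in part through IRF1, and NLRC5 acts at the shared promoter element of the class I genes.

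The deposited annotation places each kept cell in 1 of 4 populations, which are the units compared here: 3329 sensitive cells in monoculture, 2059 sensitive cells in coculture, 6292 resistant cells in coculture and 7557 resistant cells in monoculture. Every kept coculture cell carried at least 1 UMI of its lineage's label, whereas 1071 kept sensitive cells and 2050 kept resistant cells grown alone carried none, so cells were selected differently in the 2 settings, and an alternative with at least 2 label UMIs in every cell left the G1 calls below at the same counts. Cells called G1 were taken apart because they made up 89.0% of the sensitive monoculture but 55.3%, 49.7% and 50.0% of the other populations in that order. Levels are UMIs (counted molecules) scaled to 1000000 UMIs of the population (CPM), summed over cells and not divided by gene length, so they are compared between populations and not between genes. Cells of a library are not replicates, and no p-value was computed. Intervals are 95% and cover counting error only. The G1 cells had median depths of 26713, 31963, 28687 and 33368 UMIs, and mitochondrial genes took 20.7% and 18.9% of the UMIs of sensitive G1 cells alone and in coculture, and less, up to 17.4%, in resistant cells. The part of depth and of the mitochondrial share in the differences was tested only as far as the alternatives in the closing section go. Of 3 pairs of libraries, the pairs shared 48, 34 and 60 barcodes, of which 8, 7 and 17 belonged to kept cells in both libraries. Luminal markers fitted the cell line's label, with KRT8 at 1900 to 2350 CPM and GATA3 at 367 to 428 CPM in G1 cells, whereas of the 4 leukocyte markers PTPRC and CD3E had at most 2 UMIs in G1 cells of any population, LYZ had 2 to 17, and CD14 had 76, 68, 106 and 161 (0.919 to 1.84 CPM). The part of CD14-bearing RNA in the results was not tested.

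In GRCh37 coordinates, the build the submitters name, 7 of the 9 genes lie on the short arm of chromosome 6. HLA-F lies at chr6:29690552-29706305 and HLA-E at chr6:30457286-30461971, both on the plus strand. HLA-C at chr6:31236526-31239907, HLA-B at chr6:31321649-31334844, TAP2 at chr6:32789610-32806516, TAP1 at chr6:32812986-32821593 and TAPBP at chr6:33267471-33282061 are on the minus strand. B2M lies at chr15:45003556-45011049 and NLRC5 at chr16:57023397-57117443, both on the plus strand. The UMIs of a gene were counted over its annotated transcripts, and with the 3' chemistry they come mainly from transcript 3' ends. The part of each exon or UTR in a value was not measured. The HLA heavy chain genes resemble each other closely and vary between people, and the line's alleles may differ from the reference, so UMIs may have been lost from or split between HLA-B, HLA-C, HLA-E and HLA-F. Exons of HLA-F overlap those of HLA-F-AS1, and exons of TAP1 overlap those of PSMB8-AS1, on the opposite strand in both cases, and on the same strand a read-through gene shares exons with TAP2 and the transcribed pseudogene DHFRP2 with HLA-B.

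The sequences before the start sites are shown for 4 members, since the results turn on members that were high together in small groups of cells and on members that moved apart between the populations. They are the 250 bases before the annotated start, from RefSeq on GRCh38.p14, 5' to 3' on the gene's strand. Capitals mark CCAAT on either strand, TGACG on either strand, and, on either strand, GAAA followed by any 2 bases (NN) and GAAA again, which can overlap itself. The last form is that of interferon-responsive elements.
B2M, chr15:44711267-44711516, plus strand: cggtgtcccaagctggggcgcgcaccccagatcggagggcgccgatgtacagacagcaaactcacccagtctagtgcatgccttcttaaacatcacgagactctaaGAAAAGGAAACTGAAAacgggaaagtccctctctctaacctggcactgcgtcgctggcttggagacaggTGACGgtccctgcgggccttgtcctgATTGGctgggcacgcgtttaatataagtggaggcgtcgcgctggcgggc
HLA-B, chr6:31357180-31357429, minus strand: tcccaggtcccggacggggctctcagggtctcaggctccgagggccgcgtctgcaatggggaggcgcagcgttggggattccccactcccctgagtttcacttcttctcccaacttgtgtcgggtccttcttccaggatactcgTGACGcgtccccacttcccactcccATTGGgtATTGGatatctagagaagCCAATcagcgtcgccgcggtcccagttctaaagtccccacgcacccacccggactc
TAP1, chr6:32853705-32853954, minus strand: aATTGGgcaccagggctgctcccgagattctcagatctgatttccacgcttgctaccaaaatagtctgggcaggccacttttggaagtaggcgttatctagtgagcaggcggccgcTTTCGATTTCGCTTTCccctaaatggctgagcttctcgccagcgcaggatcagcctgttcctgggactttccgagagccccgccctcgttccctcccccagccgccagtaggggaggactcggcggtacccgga
TAPBP, chr6:33314079-33314328, minus strand: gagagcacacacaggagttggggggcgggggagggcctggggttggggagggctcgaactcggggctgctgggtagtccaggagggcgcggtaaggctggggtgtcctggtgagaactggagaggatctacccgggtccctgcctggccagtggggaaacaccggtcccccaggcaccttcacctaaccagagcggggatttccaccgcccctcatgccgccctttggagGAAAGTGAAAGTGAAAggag
The table of start sites held 7 of the 9 members, with 8 windows because TAP1 has 2 starts. The pair of GAAA was in the windows of 5 of those 7 members (HLA-F, B2M, TAP1, TAP2 and TAPBP), against 3.02% of all 35116 windows in the table. In the TAP1 window it starts 134 and 128 bases before the start on overlapping positions, and in the B2M window 144 and 138 bases before it. CCAAT was found in 5 members (HLA-B, HLA-C, HLA-F, B2M and TAP1) and in 32.0% of all windows, and TGACG in 4 members (HLA-B, HLA-C, B2M and TAP2) and in 21.2% of all windows. In HLA-B, HLA-C and HLA-F a CCAAT lies 56 or 57 bases before the start. These matches describe letters in a window and do not show that a factor binds there.

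Summed over the 9 members, G1 cells had 929 CPM in the sensitive monoculture, 868 CPM in the sensitive coculture, 782 CPM in the resistant coculture and 826 CPM in the resistant monoculture. The sensitive populations were above the resistant ones in this sum, which B2M dominates. Without B2M the sensitive populations were not above the resistant ones in G1 cells, at 470 CPM (466 to 475), 477 CPM (470 to 484), 484 CPM (480 to 489) and 508 CPM (505 to 512), where the intervals of neighbours overlapped except for the resistant monoculture. Over all phases the values without B2M were 466, 464, 458 and 491 CPM, with the resistant coculture lowest. With TMM scaling, which corrects totals for composition, the sum of all 9 was 888, 860, 785 and 869 CPM, which put the resistant monoculture above the sensitive coculture. Both alternatives were chosen after the data were seen. The members did not share this order. B2M, TAP1 and TAP2 were highest in the sensitive monoculture, HLA-C, HLA-E and HLA-F were highest in the resistant monoculture, and HLA-B was highest in the sensitive coculture, as the plot of levels by population shows.

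**Figure D1:**
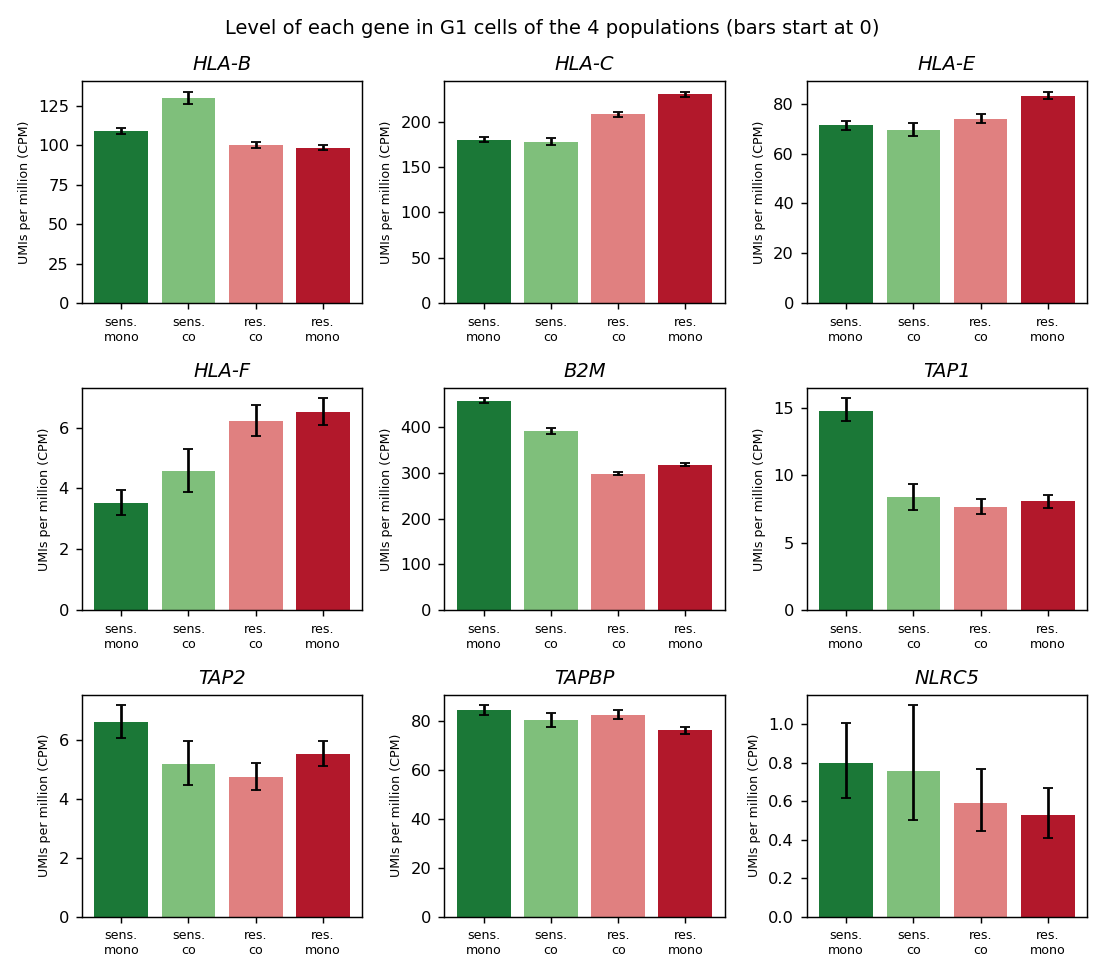
Level of each of the 9 genes in G1 cells, in CPM (vertical axis, starting at 0 and scaled for each gene), in sensitive cells alone and in coculture and in resistant cells in coculture and alone. Bars are summed UMIs of 1 population each and error bars are exact Poisson 95% intervals. TAP1 stands at 14.8 CPM in the sensitive monoculture and at 7.66 to 8.35 CPM in the other populations, while HLA-C and HLA-F are lower in the sensitive than in the resistant populations.

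HLA-B, a classical heavy chain, was at 109 CPM (107 to 111) in the sensitive monoculture, 130 CPM (126 to 134) in the sensitive coculture, 100 CPM (98.2 to 102) in the resistant coculture and 98.4 CPM (96.7 to 100) in the resistant monoculture. The sensitive coculture was highest, the sensitive monoculture was next, and the resistant populations were lowest and overlapped in their intervals. The fold of sensitive cells in coculture over monoculture was 1.19 (1.15 to 1.23), and that of resistant over sensitive cells in coculture was 0.771 (0.744 to 0.798).

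HLA-C, the other classical heavy chain measured here, went another way. Its levels were 180, 178, 208 and 230 CPM in the same order of populations. The sensitive populations overlapped, and the resistant ones were higher by 1.17-fold (1.14 to 1.20) in coculture and 1.28-fold (1.25 to 1.30) in monoculture. HLA-B accordingly took 37.8%, 42.2% and 32.5% of the UMIs of HLA-B and HLA-C together in the first 3 populations and 29.5% to 30.4% (its interval) in the resistant monoculture, a share that does not depend on how libraries are scaled. It was highest in sensitive cells in coculture and lowest in resistant cells alone, and the 4 exact binomial intervals did not overlap.

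HLA-E, a heavy chain that presents leader peptides to natural killer cell receptors, was at 71.4, 69.6, 74.0 and 83.3 CPM in the same order of populations. The resistant monoculture was above the rest, by 1.17-fold (1.13 to 1.21) over the sensitive monoculture, and the other 3 were close. HLA-F, a non-classical heavy chain of low level, was at 3.53 CPM (3.14 to 3.96), 4.56 CPM (3.89 to 5.30), 6.21 CPM (5.71 to 6.74) and 6.50 CPM (6.07 to 6.96). It was lower in both sensitive populations than in both resistant ones, and the resistant over sensitive fold was 1.84 (1.61 to 2.11) between monocultures and 1.36 (1.15 to 1.63) in coculture. Behind the HLA-F values were 292, 168, 577 and 837 UMIs.

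B2M, the light chain shared by all class I heavy chains, was at 458 CPM (453 to 463) in the sensitive monoculture, 392 CPM (385 to 398) in the sensitive coculture, 298 CPM (295 to 302) in the resistant coculture and 317 CPM (314 to 321) in the resistant monoculture. Both sensitive populations were above both resistant ones. The resistant over sensitive fold was 0.693 (0.683 to 0.703) between monocultures and 0.761 (0.746 to 0.777) in coculture, and sensitive cells in coculture were at 0.855 of their monoculture level (0.839 to 0.872). For each UMI of the 4 heavy chains together, there were 1.26, 1.02, 0.767 and 0.759 UMIs of B2M in the 4 populations. The resistant populations differed little in this ratio, and both sensitive populations were above them. It is a ratio of transcript 3' ends and not of proteins.

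TAP1, one chain of the peptide transporter, was at 14.8 CPM (14.0 to 15.7; 1225 UMIs) in the sensitive monoculture. The sensitive coculture was at 8.35 CPM (7.45 to 9.34), the resistant coculture at 7.66 CPM (7.11 to 8.25) and the resistant monoculture at 8.06 CPM (7.57 to 8.56). The sensitive monoculture stood alone, and the other 3 populations overlapped. TAP1 in sensitive cells in coculture was at 0.564 of its monoculture level (0.496 to 0.640), and in the resistant monoculture at 0.544 of the sensitive one (at most 0.592 by its interval).

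TAP2, the other chain of the transporter, was at 6.60, 5.18, 4.75 and 5.53 CPM in the same order. It was highest in the sensitive monoculture as well, but by less, with a fold of 0.785 (0.662 to 0.927) for sensitive cells in coculture over monoculture. TAP1 took 69.2% (67.0 to 71.3) of the UMIs of both transporter genes in the sensitive monoculture and 61.7%, 61.8% and 59.3% in the other populations, whose intervals overlapped.

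TAPBP, which encodes tapasin, was at 84.4, 80.2, 82.5 and 76.2 CPM and was the most even member among those above 1 CPM. NLRC5 was the lowest member, at 0.798, 0.759, 0.592 and 0.528 CPM, from 66, 28, 55 and 68 UMIs. Its intervals overlapped in neighbouring populations, with a resistant over sensitive fold of 0.662 (0.465 to 0.944) between monocultures.

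Each comparison was also set against all genes with at least 50 UMIs in its populations, with a gene called when it differed by more than 1.5-fold on the log2(CPM + 1) scale. For sensitive cells in coculture against monoculture, 1 of the 9 members was called, TAP1, which fell by 0.76 on the log2 scale, against 8.87% of all 11978 genes called in either direction. For resistant cells in coculture against monoculture, 0 of 9 were called, against 0.873% of 12483 genes. Between the monocultures, resistant over sensitive, 2 of 9 were called, HLA-F higher by 0.73 and TAP1 lower with a log2 ratio of -0.80, against 18.8% of 12480 genes. Within the coculture, resistant over sensitive, 0 of 9 were called, against 7.18% of 12103 genes. In all phases together the same members were called, 1, 0, 2 and 0 in that order, against 11.0%, 0.699%, 19.2% and 6.14% of all genes. The members' shares lay near these background shares. NLRC5 between monocultures in all phases had a plain fold of 0.579 (0.438 to 0.770), from 0.506 CPM in resistant and 0.873 CPM in sensitive cells. At such levels the pseudocount of 1 CPM draws the ratio towards 0, here to -0.31, so the rule could hardly call this gene. No member was called in these comparisons with a pseudocount of 10 CPM, and HLA-F was not called between monocultures in all phases without the cells of clusters 9 and 13 described further on, with mitochondrial genes left out of the totals, or with only cells of at least 2 label UMIs.

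The members' median log2 ratios in G1 cells were -0.04, -0.06, -0.15 and -0.11 in the same order of comparisons, beside -0.07, 0.03, -0.11 and -0.00 over all genes tested. Counting error is small for these genes, and most smaller differences still exceeded it. The interval lay above 0 for 2 members and below 0 for 4 in sensitive cells in coculture over monoculture, where it left out 0 for 62.0% of all genes. It did so for 1 and 4 members in resistant cells over theirs (56.6% of all genes), for 3 and 6 between monocultures (77.3%), and for 3 and 2 within the coculture (53.9%). Intervals that cover counting error only thus left out 0 for most genes, and the members' counts are not particular to them. Between the monocultures the 3 higher members were all heavy chains (HLA-C, HLA-E and HLA-F). The 6 lower ones were HLA-B, B2M, TAP1, TAP2, TAPBP and NLRC5, in a comparison where 38.6% of all genes were above 0. Of 8 general chaperones of loading, which are not members, 5 were above 0 and 3 below. With TMM scaling the members' signs held, but HLA-B and TAPBP came to -0.01 and -0.01. B2M between monocultures stood just inside the threshold at -0.53, and it passed it, at -0.59, when mitochondrial genes were left out of the UMI totals. The comparisons share populations and are not independent of each other.

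**Figure D2:**
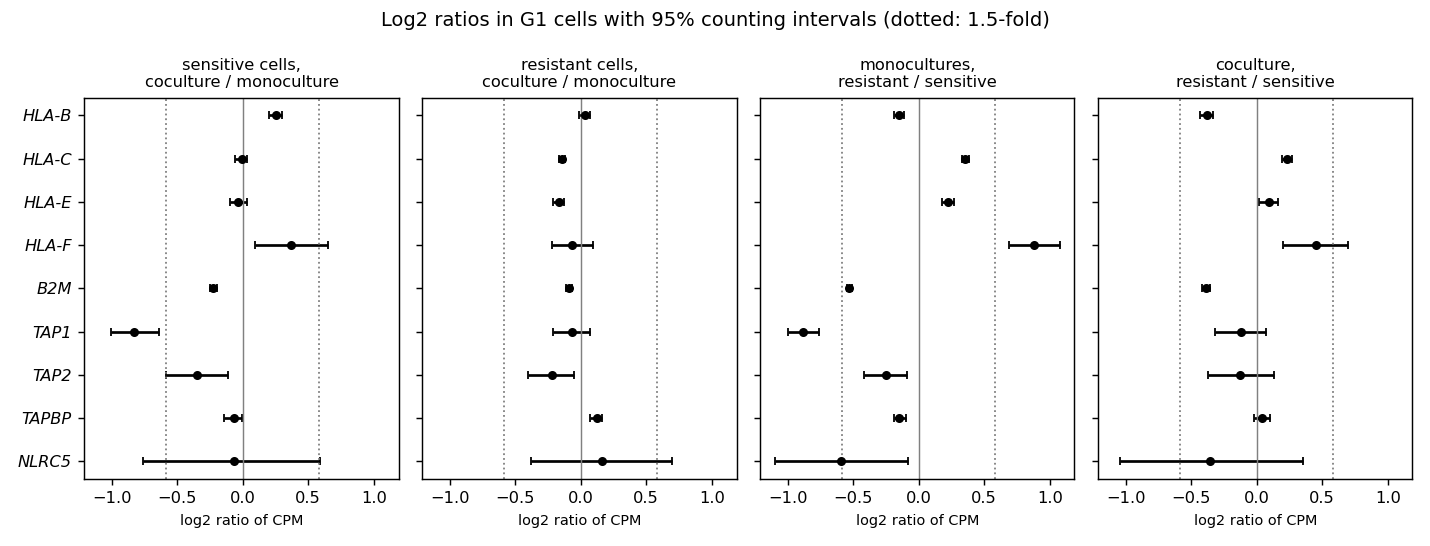
Log2 ratio of CPM in G1 cells for each of the 9 genes (vertical axis) in the 4 comparisons, with 95% counting intervals as horizontal bars and dotted lines at 1.5-fold in either direction. TAP1 is past the lower line for sensitive cells in coculture over monoculture and between monocultures, and HLA-F is past the upper line between monocultures.

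Proteasomes that contain the inducible subunits PSMB8, PSMB9 and PSMB10 in place of PSMB5, PSMB6 and PSMB7 favour peptides that class I molecules bind. PSMB10 was at 9.10 CPM in sensitive cells alone and at 20.0, 22.0 and 19.6 CPM in the other populations in that order. It was called higher in sensitive cells in coculture over monoculture, with a log2 ratio of 1.06, and between monocultures, with 1.03. Of the UMIs of PSMB10 and PSMB7 together, PSMB10 took 4.45% (4.14 to 4.77) in the sensitive monoculture and 8.77%, 10.3% and 8.27% in the others.

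PSMB8 had a different order, at 2.86, 4.56, 1.70 and 1.66 CPM, with the highest level in sensitive cells in coculture and a log2 ratio of -1.04 for resistant over sensitive cells in coculture. Its share of PSMB8 and PSMB5 was 0.858%, 1.56%, 0.593% and 0.484%. PSMB9, whose gene lies head to head with TAP1, stayed between 5.81 and 7.16 CPM with a share of 2.29% to 2.68%, and was called in none of the comparisons. The PA28 activator genes PSME1 and PSME2 had log2 ratios of 0.39 and 0.49 between monocultures, inside the threshold. Across the 5 genes of the inducible proteasome and its activator, all 5 were above 0 in sensitive cells in coculture over monoculture, with a median of 0.37, and 1 was called, beside 40.4% of all genes above 0, a median of -0.07 and 8.87% called.

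**Figure D3:**
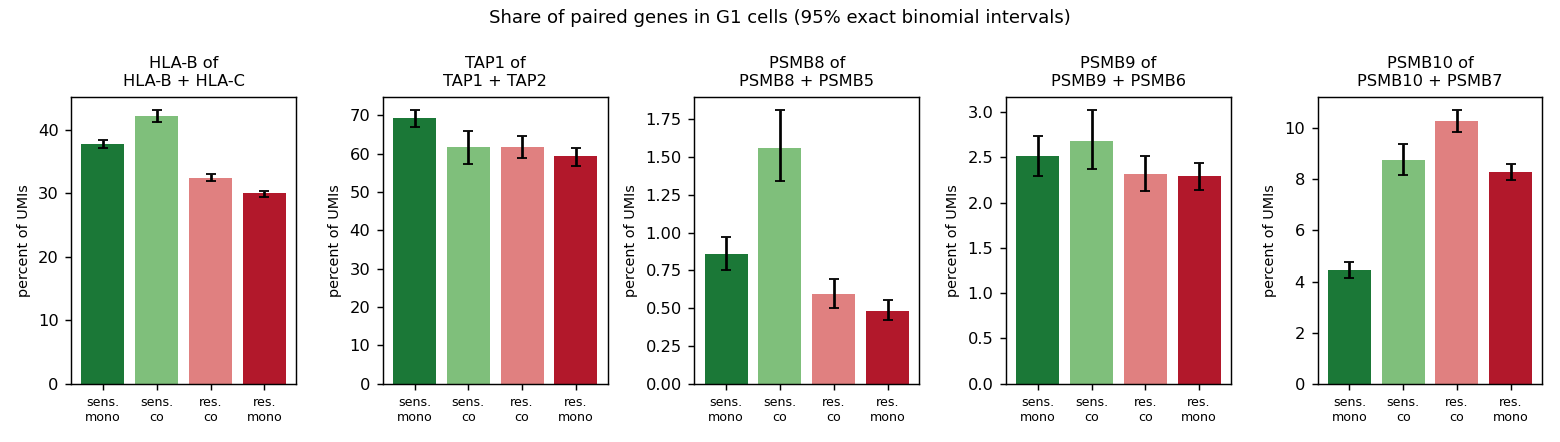
Share of UMIs (percent, vertical axis starting at 0) that the first gene takes of a pair in G1 cells of the 4 populations, with exact binomial 95% intervals. PSMB10 is at 4.45% in the sensitive monoculture and between 8.27% and 10.3% in the others, whereas HLA-B is highest in the sensitive coculture at 42.2%.

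None of the 7 peptide editing and trimming genes was called, though not each had enough UMIs in each comparison. TAPBPL, which encodes a second peptide editor related to tapasin, had 42, 10, 19 and 36 UMIs in the 4 populations. The trimming peptidase ERAP1 was at 1.26, 0.814, 0.904 and 0.925 CPM, and ERAP2 had 13, 11, 7 and 10 UMIs. The other peptidases of the list, NRDC, THOP1, LNPEP and TPP2, were at 35.3 to 42.9, 28.2 to 36.1, 16.5 to 21.4 and 6.10 to 8.55 CPM. None of the 8 general chaperones of the endoplasmic reticulum was called in any comparison in G1 cells. Calreticulin, CALR, was at 309, 334, 381 and 395 CPM, calnexin, CANX, at 283, 315, 369 and 313 CPM, and the disulfide isomerase PDIA3 at 246, 218, 271 and 310 CPM. PDIA6, a disulfide isomerase of the same list, had another order, at 121, 122, 85.8 and 93.4 CPM, with the sensitive populations higher.

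Among 14 transcription factors of the class I genes, 2 were called between monocultures, where 18.8% of all genes were, and none in the other comparisons. IRF1, an interferon-induced activator of class I genes, was at 18.4, 19.4, 14.1 and 11.4 CPM, with a log2 ratio of -0.65 between monocultures. STAT2, a transcription factor of the type I interferon response, was at 10.6, 8.08, 6.84 and 6.21 CPM, with -0.69. IRF2 and RFX5 were called nowhere, at 12.6 to 17.8 CPM and 9.38 to 13.4 CPM.

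Genes of the interferon receptors and their kinases had lower levels in resistant cells alone than in sensitive cells alone. All 7 had log2 ratios below 0 and 4 were called, with a median of -0.65, in a comparison where 18.8% of all genes were called, 38.6% were above 0 and the median was -0.11: JAK1 (-1.22), IFNGR1 (-1.04), JAK2 (-0.94) and IFNAR1 (-0.65). In sensitive cells in coculture over monoculture the interferon gamma receptor chains IFNGR1 (-0.93) and IFNGR2 (-0.87) were called lower, 2 of the 7, where 8.87% of all genes were called. IFNGR1 was at 11.2 CPM in the sensitive monoculture and at 5.42, 5.60 and 4.97 CPM elsewhere, so the sensitive monoculture stood alone as for TAP1. IFNGR2 was highest there too, but the other populations differed, at 19.2, 10.1, 14.1 and 16.3 CPM. It was lowest in the sensitive coculture and was not called between monocultures. None of the 7 was called in resistant cells in coculture over monoculture or within the coculture.

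Of the genes that modify or turn over class I molecules, SUSD6 (-0.88), TMEM127 (-0.75) and SPPL3 (-0.63) were called lower between monocultures, where 18.8% of all genes were called. SUSD6 was also called in sensitive cells in coculture over monoculture (-0.64). Among class I relatives, FCGRT, the neonatal Fc receptor, which also pairs with B2M, was at 0.181 CPM (15 UMIs) in the sensitive monoculture and 1.22, 1.67 and 2.31 CPM in the others, and was called higher in the sensitive coculture (0.91) and resistant monoculture (1.49) against it. MR1, which presents microbial metabolites, and MICB, a stress ligand, were called lower between monocultures, at -0.74 and -0.61. HLA-G had 0 UMIs in G1 cells of each population, and the floor of 3 UMIs used for a count of 0 is 0.0233 to 0.0814 CPM there.

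Most of the 10 class II genes had few UMIs. The class II transactivator CIITA had 3, 1, 5 and 2 UMIs, HLA-DRA had 7, 1, 8 and 8, and CD74, the invariant chain, had 3, 6, 27 and 39. HLA-DRB1 had 50, 16, 34 and 43 UMIs and HLA-DQB1 37, 6, 16 and 15, both highest in the sensitive monoculture and not called. HLA-DMA, a peptide loading chaperone of class II, was the highest of the list, at 5.50, 7.11, 12.2 and 12.8 CPM, and was called higher in resistant cells both between monocultures (1.08) and within the coculture (0.70).

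Members also differed between cell cycle phases. HLA-E was higher in G2M than in G1 cells in all 4 populations: from 71.4 to 105 CPM in the sensitive monoculture, from 69.6 to 83.7 CPM in the sensitive coculture, from 74.0 to 89.1 CPM in the resistant coculture and from 83.3 to 108 CPM in the resistant monoculture. The log2 ratios of 0.55, 0.26, 0.26 and 0.37 were each past counting error and inside 1.5-fold. In S cells HLA-E differed from G1 cells by less than counting error in each population.

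TAPBP was lower in S cells, with log2 ratios of -0.44, -0.21, -0.33 and -0.31 in the same order of populations, and was below G1 in G2M cells too. B2M in S cells over G1 cells had log2 ratios of -0.32, -0.18, -0.21 and -0.11. Of the members with enough UMIs, 6 of 9, 7 of 8, 8 of 9 and 9 of 9 were below G1 in S cells, and 6 of 9, 6 of 8, 7 of 9 and 6 of 9 in G2M cells, beside all-gene medians between -0.03 and 0.07. TAP1 was highest in the sensitive monoculture in each phase, at 12.7 CPM in S cells and 11.6 CPM in G2M cells of the sensitive monoculture, against 5.82 to 7.32 CPM in the same phases of the other populations. Phase was called by the authors from the expression of the same cells.

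**Figure D4:**
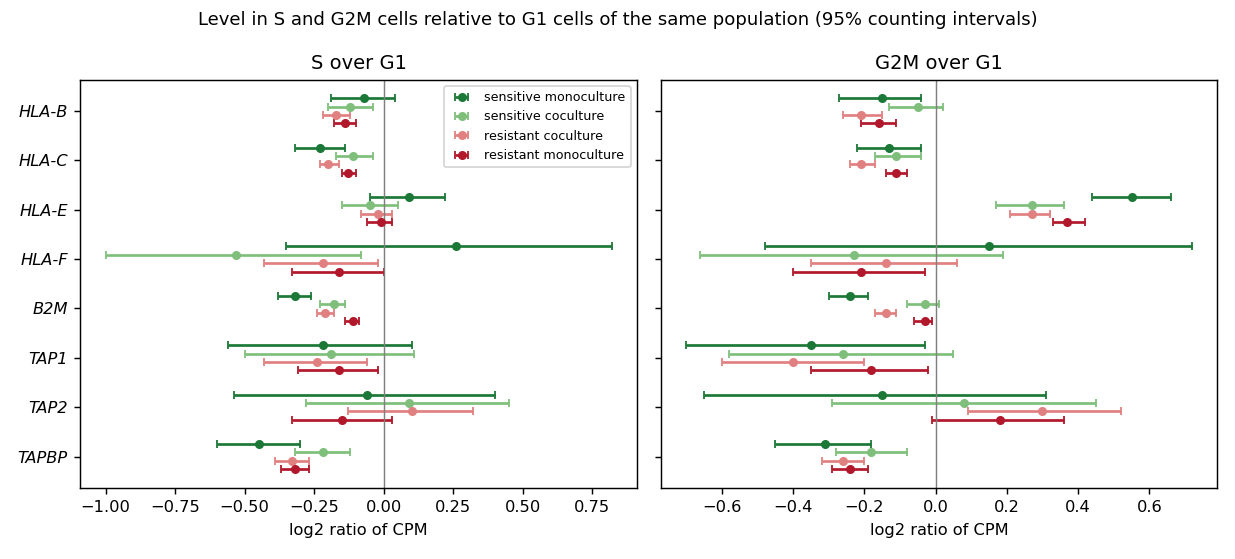
Log2 ratio of CPM in S cells (left) and G2M cells (right) over G1 cells of the same population, with 95% counting intervals, for 8 members (vertical axis) in the 4 populations (colours). NLRC5 is left out for its few UMIs. HLA-E lies above 0 in G2M cells of all 4 populations, from 0.26 to 0.55, and TAPBP lies below 0 in both panels in all 4.

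Single cells were compared at 1 depth. With each cell thinned to 5000 UMIs so that depth does not set the share, at least 1 UMI of B2M was seen in 81.9%, 80.7%, 70.5% and 72.9% of G1 cells (99.4%, 99.6%, 98.8% and 99.4% before thinning), and of TAP1 in 7.59%, 4.22%, 3.78% and 3.73% (30.6%, 21.2%, 18.8% and 21.2%). No cell type that should lack these genes was in the libraries, so the share that free RNA gives was not measured. The variance of the thinned counts was 2.86, 2.37, 2.28 and 2.12 times their mean for B2M and 1.36 to 1.53 times for HLA-B, and between 0.975 and 1.14 times for HLA-E, HLA-F, TAP1, TAP2, TAPBP and NLRC5, where counting alone gives about 1. This ratio grows with the mean, so it does not rank genes of different level by their variation. The cell-by-cell Pearson r of HLA-B with B2M was 0.36, 0.35, 0.29 and 0.27, over 1138 to 3781 cells that share a library. That of HLA-B with HLA-C was 0.22, 0.20, 0.16 and 0.18 in the same cells. TAP1 with TAP2 was at -0.01 to 0.05, at thinned means of 0.0390 to 0.0793 and 0.0250 to 0.0425 UMIs per cell. Counts this low hold r down, so it does not show whether TAP1 and TAP2 vary together.

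Most class I members were high in 2 small clusters of the deposited annotation, numbers 9 and 13, with HLA-E in cluster 13 as the exception. These clusters were made from the expression of the same cells, so their levels are a description. The share of all genes that differed as much between these clusters and the other cells was not computed. The folds below are therefore not shown to be particular to class I genes. Cluster 9 held 39, 43, 67 and 108 cells of the 4 populations, that is 1.17%, 2.09%, 1.06% and 1.43%. Cluster 13 held 55 cells of the resistant coculture, 51 of the resistant monoculture and 1 of each sensitive population. Groups of at least 30 cells are described, a limit set after the sizes were seen, in place of 50.

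In cluster 9, B2M was at 1490 CPM in the sensitive monoculture, 1270 CPM in the sensitive coculture, 950 CPM in the resistant coculture and 947 CPM in the resistant monoculture. The other cells of those populations were at 435, 359, 273 and 300 CPM, and the order of the populations was the same inside the cluster and outside it except for the resistant pair. The fold over the other cells was 3.42, 3.53, 3.48 and 3.16 for B2M, 3.02, 3.42, 3.51 and 2.83 for HLA-B, and 3.33, 4.44, 4.76 and 4.86 for TAP1. HLA-C was 2.14 to 2.36 times and HLA-E 1.64 to 2.10 times the level of the other cells, and TAPBP moved the least of the 9 at 1.48 to 1.61 times.

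Cluster 13 of the resistant cells shared most of this. B2M was at 940 CPM in coculture and 859 CPM in monoculture, 3.43 and 2.82 times the other cells, HLA-B was 2.64 and 2.74 times and TAP1 4.05 (2.95 to 5.43) and 6.95 (5.62 to 8.52) times as high. It differed from cluster 9 at HLA-E, which was at 1.12 (0.942 to 1.31) and 0.921 (0.782 to 1.08) times the other cells, and at TAPBP, at 2.40 (2.13 to 2.69) and 2.72 (2.44 to 3.02) times.

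The regulators parted the 2 clusters as well. IRF1 was 2.43 to 6.59 times as high in cluster 9 and 10.6 and 11.2 times in cluster 13. NFKB1, a subunit of NF-kappaB, was 0.878 to 1.36 times in cluster 9 and 2.01 and 2.73 times in cluster 13. Of the inducible proteasome genes, PSMB8 and PSMB9 were higher in both clusters, with PSMB8 at 3.13, 8.22, 10.2 and 12.8 times in cluster 9 and at 6.64 and 10.4 times in cluster 13, and PSMB9 at 3.52, 7.16, 6.44 and 8.88 times and at 7.53 and 8.29 times. PSMB10 was 1.00 to 1.37 times in cluster 9 and 1.59 and 2.39 times in cluster 13. NLRC5 in cluster 9 rested on 3, 8, 12 and 8 UMIs, and in cluster 13 on 3 and 4.

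**Figure D5:**
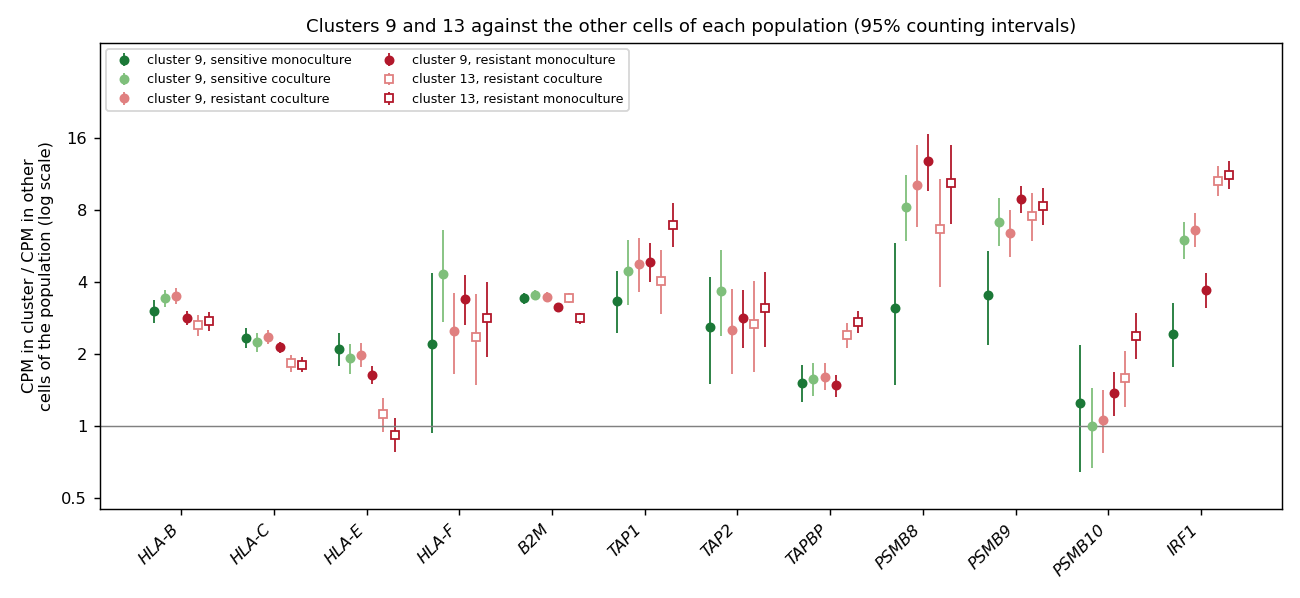
Ratio of CPM in clusters 9 (filled circles) and 13 (open squares) to the CPM in the other cells of the same population (log2-spaced vertical axis, all phases), with 95% counting intervals, for 8 members and 4 other genes. All points of B2M, HLA-B and TAP1 lie above 2, while HLA-E lies between 1.64 and 2.10 in cluster 9 and at 0.921 and 1.12 in cluster 13.

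All 7 luminal markers were detected in these cells. Relative to the other cells, EPCAM was at 0.847 to 1.05, ESR1 at 0.764 to 1.12, GATA3 at 0.770 to 1.11, FOXA1 at 0.668 to 1.09, KRT8 at 0.714 to 1.51, KRT18 at 0.743 to 1.59 and KRT19 at 0.916 to 1.11 times, and PTPRC, CD3E and LYZ had 0 UMIs in each of the 6 groups. CD14 was at 4.51 (1.63 to 10.0) and 3.25 (1.18 to 7.18) times the level of the other cells in cluster 13, from 6 UMIs in each group, and at 0.572 to 1.84 times in cluster 9, from at most 4 UMIs, and its part in the class I levels was not tested. Median depth was 25232 to 33254 UMIs in cluster 9 and 30042 and 39974 UMIs in the resistant cells of cluster 13, beside 27622 to 35443 UMIs in the whole populations.

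Cells with at least 10 B2M UMIs of 5000, a limit set after the counts were seen, numbered 57, 20, 21 and 27 in the 4 populations. They were 35.0% (20.6 to 51.7) of the cells of clusters 9 and 13 and 1.31% (0.948 to 1.76) of the other cells in the sensitive monoculture, 25.0% and 0.447% in the sensitive coculture, 12.3% and 0.0972% in the resistant coculture, and 8.81% and 0.176% in the resistant monoculture. Clusters 9 and 13 together held 24.6%, 55.0%, 71.4% and 51.9% of these cells. Both clusters were singled out for high members, B2M among them, in the same cells. A higher share of such cells there follows from that choice and is no separate support. Without both clusters, the counts of called members in G1 cells were again 1, 0, 2 and 0, an alternative chosen after the data were seen.

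Within the clusters, the TAP1 difference between sensitive cells in coculture and monoculture exceeded counting error in cluster 3 and the small cluster 9 (-0.85, -1.59 to -0.14), and not in clusters 4 and 8, which hold more of the monoculture. In G1 cells of cluster 3, TAP1 was at 7.78 CPM in the sensitive coculture (868 cells) and 18.4 CPM in the sensitive monoculture (227 cells), a log2 ratio of -1.24 (-1.56 to -0.92). B2M in the same cells was at 371 against 514 CPM (-0.47) and TAP2 at 4.79 against 9.06 CPM (-0.92). In cluster 4 the coculture had 81 cells and 29 UMIs of TAP1, at 12.1 against 13.7 CPM, a difference within counting error. In cluster 8 (44 coculture cells, 12 UMIs) TAP1 was at 12.4 against 16.9 CPM, a log2 ratio of -0.45 (-1.42 to 0.38), and in cluster 12, with 155 cells of the sensitive monoculture, it was at 8.30 CPM (5.68 to 11.7), a range that holds the pooled levels of the other populations. Cluster 3 held 7.66% of the sensitive monoculture's G1 cells. All 9 members had log2 ratios below 0 in cluster 3, among them HLA-E at -0.39 (-0.52 to -0.26). The share of all genes below 0 within this cluster was not computed. Over all sensitive G1 cells, 40.4% of genes were above 0. HLA-F, at -0.58 (-1.08 to -0.05) in cluster 3, had the opposite sign to its pooled value of 0.37 (0.09 to 0.65). HLA-B was at -0.09 (-0.20 to 0.01) in cluster 3, and was higher in coculture in cluster 4, with 0.43 (0.28 to 0.59), and in cluster 9, with 0.30 (0.08 to 0.51). The coculture held 76.3% of its sensitive G1 cells in cluster 3 and the monoculture 62.7% in cluster 4, and whether this shift bears on the pooled differences was not tested.

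Among clusters with at least 50 G1 cells of a resistant population, cluster 6 was the lowest for B2M, at 215 CPM in coculture and 246 CPM in monoculture. It was the lowest of these for TAP1 too, at 4.72 and 4.14 CPM. Cluster 5 had more HLA-E, at 104 and 116 CPM, than cluster 0, at 65.7 and 74.2 CPM. Cluster 3 holds mostly sensitive cells, but 72 resistant G1 cells of the coculture fell in it. They had 383 CPM of B2M, 14.7 CPM of TAP1 and 130 CPM of HLA-B, against 271, 6.88 and 94.3 CPM in cluster 0. The 868 sensitive G1 cells of the coculture in cluster 3 had 371, 7.78 and 123 CPM. The log2 ratio of resistant over sensitive cells there was 0.92 (0.37 to 1.43) for TAP1, from 36 UMIs in the resistant cells. For B2M and HLA-B the difference was within counting error. Whether the barcodes of these 72 cells also hold RNA of sensitive cells was not tested.

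Over the 12 profiles of 4 populations and 3 phases, the members' mean log2(CPM + 1) was followed most closely, out of 2326 genes whose mean CPM reached 50, by CLDN4 (Pearson r = 0.962), NDFIP1 (0.934), COPZ1 (0.918), RNF7 (0.916) and GABARAPL2 (0.911). The lowest values were those of POLR2I (-0.953) and FRG1 (-0.950). CLDN4, a tight junction protein gene, was at 118, 97.2, 90.8 and 93.9 CPM in G1 cells, and POLR2I, an RNA polymerase II subunit gene, at 284, 445, 518 and 434 CPM. The 12 profiles come from 3 libraries under the same treatment, and their median depths ran from 26713 to 39100 UMIs per cell. The mitochondrial gene MT-CYB ranked 7 of 2326 (r = 0.893), at 21700, 16200, 12300 and 15300 CPM in G1 cells, and the part of the mitochondrial share in this likeness was not tested. The members themselves ranged from 0.833 for TAP1 and 0.814 for B2M, which are part of that mean, to -0.324 for HLA-F.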

How the data were processed

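Spheroids were harvested on day 11 under 1 uM ribociclib, and 3 single-cell libraries were made with a 10X Genomics 3' kit, 1 per composition. The authors deposited whole-number UMI counts per gene and cell, made with Cell Ranger 3.0.2 on GRCh37 per the submitters' processing notes, and a table of kept cells with population, phase and cluster. The gene annotation is not given in the sources used here. Rows without a symbol took 0.523% to 0.591% of the UMIs and were left out. The libraries held 8643, 20227 and 11502 barcodes with 173405094, 519475237 and 359599734 UMIs, and only annotated cells were used. Library names of the annotation were matched through the column names of the counts. The annotation's other 13 columns were not used. No doublet caller was run here. The study's methods state that scrublet was used, and the kept cells of the coculture carry no UMI of the other lineage's label. Those cells were kept by their label, and many kept cells grown alone carried no label UMI. The absence of the other label therefore cannot show that no mixed barcodes remain, which was not tested.

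UMIs were summed per population and phase (Python 3.11.15, NumPy 2.4.6, SciPy 1.17.1, pandas 2.3.3). Log2 ratios used a pseudocount of 1 CPM, genes needed 50 UMIs in both populations together, and called means past 1.5-fold. Intervals were exact Poisson for levels, exact conditional binomial for plain ratios without a pseudocount, and Clopper-Pearson for shares. The scripts were tested on simulated data. With 1 library per condition no test between conditions was possible, so p-values were not computed. For shares of cells, each cell was thinned to 5000 UMIs without replacement. Alternatives were pseudocounts of 0.1 and 10 CPM, TMM scaling (edgeR 4.0.16 in R 4.3.3, scaling only), totals without mitochondrial genes, no UMI minimum, cells with at least 2 label UMIs, cells without the 5% deepest, thinning, means over cells, and 10% of the other lineage's profile taken off. Named beside the 9 members were list genes past 1.5-fold in G1 cells, the defining genes of each list, and the 5 genes most and 2 least alike. Lineage label genes were left out of that ranking, which the plan did not state, and genes named by cluster come from the same lists. NFKB1, CD74 and HLA-DRA, LYZ and the other cell type markers were named after their values were seen. The members and lists were chosen with earlier results of these data known. Some list genes are not reported here.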

Additional observations from a re-analysis of the deposited data

Results flagged for a closer look

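TAPBP had log2 ratios of opposite sign between coculture and monoculture in the lineages, which is why it is listed. Its plain log2 ratio in G1 cells was -0.07 in sensitive cells, from 84.4 to 80.2 CPM, and 0.12 in resistant cells, from 76.2 to 82.5 CPM, each with a counting interval that leaves out 0. The medians of all genes were -0.07 and 0.03, so the sensitive value equals that of the typical gene. With TMM scaling the TAPBP values were -0.02 and 0.05. Within clusters of sensitive cells, it was -0.12 (-0.25 to 0.02) in cluster 3, 0.04 (-0.17 to 0.25) in cluster 4 and 0.26 (-0.03 to 0.54) in cluster 8. In cluster 9 it was -0.04 (-0.41 to 0.33). In resistant cells TAPBP was at 0.11 (0.06 to 0.16) in cluster 0 and 0.16 (0.05 to 0.28) in cluster 5. It was at 0.04, 0.22 and -0.13 in clusters 6, 9 and 13 of these cells, each within counting error. With 1 library per condition, the difference between the lineages was not tested, and both changes are well inside 1.5-fold.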

How the results depend on the processing

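Counts of called members stayed within 1.5 times in 81 of 88 combinations of alternative, comparison and cell set, and no direction of a called value reversed. The comparisons with 0 called members stayed at 0 throughout, so they add little to that count. Of the members' log2 ratios 129 of 782 moved, as did 9 of 88 median log2 ratios. With a pseudocount of 10 CPM the count went to 0 for sensitive cells in coculture over monoculture and for the monocultures, in G1 and in all cells, since TAP1 and HLA-F are low. Thinned to 5000 UMIs, sensitive G1 cells in coculture over monoculture gave 2, with TAP2 (-0.64) beside TAP1 (-0.81). Between monocultures in all cells, the count was 1 with cells of at least 2 label UMIs, and 1 without clusters 9 and 13. HLA-F left the list in both, at 0.55 and 0.58. With a pseudocount of 0.1 CPM, 1 member was called higher there and 2 lower, in place of 1 and 1. TMM scaling moved the median of all genes between monocultures in G1 from -0.11 to 0.01 and that of the members from -0.15 to -0.01, and the TAP1 ratio to -0.68. In sensitive G1 cells in coculture over monoculture, TMM put 4 members above 0 in place of 2, with HLA-C (0.04) and HLA-E (0.01) changing sign. In all sensitive cells 2 members stayed above 0. In resistant G1 cells in coculture over monoculture, TMM took HLA-B from 0.03 to -0.04. None of the members that changed sign was called. Leaving out mitochondrial genes added B2M to the lower members between monocultures in G1, and in all cells it added B2M (-0.61) and lost HLA-F (0.58), so the count stayed at 2. Taking off 10% of the other lineage's profile left the TAP1 ratio of sensitive G1 cells at -0.75. No paired analysis was possible because the result comes from no test and each composition is 1 library. NLRC5, ERAP2 and TAPBPL are limited by their few UMIs.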
